A study of Mus with 21 samples.

Results

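*Gjb2*, which encodes the gap junction protein connexin 26, was examined together with 7 genes of meningeal fibroblasts (*Slc6a13*, *Slc22a6*, *Foxc1*, *Foxc2*, *Foxd1*, *Aldh1a2* and *Crabp2*) in whole brains of female mouse embryos at E17.5. *Gjb2* was selected on its rise in *Wapl* delta/+ brains relative to *WT* brains in these libraries, and the others were added as known markers of the meninges. The 8 genes were found by symbol among the 55335 genes of the deposited count table, and all 8 were among the 30552 genes with enough counts to be tested. Poly(A) RNA of 1 brain gave 1 library. The 21 libraries came from 5 *WT* embryos (Wapl +/+; Nipbl +/+), 3 *Nipbl*+/- embryos (Wapl +/+; Nipbl +/delta), 7 *Wapl* delta/+ embryos (Wapl delta/+ or +/delta; Nipbl +/+) and 6 double heterozygotes (Nipbl +/delta with Wapl delta/+ or +/delta). NIPBL loads the cohesin ring onto chromosomes and WAPL removes it, and the study asked how a lower dose of each changes the brain transcriptome and whether less *Wapl* offsets less *Nipbl*. Both mutations are loss-of-function alleles present in every tissue of the embryo, not in the meninges alone. The *Nipbl* mutation arose in the germ line of sires that carried a floxed allele and the Stra8-iCre transgene, and the *Wapl* delta allele lacks the promoter and the first exons of the gene. A further *Nipbl*+/- library, set aside by the authors, was not analysed here.

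The meninges are the layered membranes around the brain, and their fibroblasts lie between the skull and the brain surface. Connexin 26 forms channels that couple neighboring cells, and in the brain it is known from the meningeal cells of the arachnoid barrier and pia. Meningeal fibroblasts also carry transporters that move GABA and organic anions between blood, cerebrospinal fluid and brain, depend on forkhead transcription factors such as FOXC1 for their own formation, and make retinoic acid, a signal known to act on the cortex beneath them. In RNA of a whole brain, fewer meningeal cells and less RNA per meningeal cell cannot be told apart.

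The libraries held between 25682566 and 35818767 counts (median 31830396). *Wapl* stood at 47.2% ± 4.42 (SD, n = 7) of its *WT* mean in *Wapl* delta/+ brains, and *Nipbl* at 55.2% ± 4.25 (SD, n = 3) in *Nipbl*+/- brains, so both labels held. Genes of neurons summed to between 3734 and 4421 CPM (counts scaled to library size) per library, which fits the labelled tissue, and the 8 members to between 77.9 and 127 CPM. In all 4 genotypes each of the 8 genes was detected in every library. The libraries formed a pair of sets by *mt-Nd3*, a mitochondrial transcript, with 52 to 106 counts in 9 libraries (*WT* replicates 4 and 5, *Wapl* delta/+ replicates 3 to 7, double-heterozygote replicates 5 and 6) and 0 to 6 counts in the other 12, which include all *Nipbl*+/- libraries. Genes of skeletal muscle, bone and the pituitary, which are not brain, reached summed levels of 82.1, 199 and 88.2 CPM in single libraries, and their part in the results was not tested.

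The level of *Gjb2* was highest in *Wapl* delta/+ brains. *Gjb2* lies on chromosome 14 of GRCm38 from 57098602 to 57104702. Its normalized count, the count scaled to the mean effective library size, was 194, 251, 207, 235 and 233 in the 5 *WT* brains (224 ± 23.1, SD). In the 7 *Wapl* delta/+ brains it ranged from 286 to 362 around a median of 312 (314 ± 27.1, SD), so that every *Wapl* delta/+ library lay above every *WT* library. The mean was 140.2% ± 12.1 (SD, n = 7) of the *WT* mean, a log2 fold change (log2FC) of 0.48 with a standard error (SE) of 0.0748. Since *Gjb2* was picked for this difference, the numbers describe it and no test is given. The rise was of like size in each *mt-Nd3* set. Among the libraries with low *mt-Nd3*, the mean was 293 in 2 *Wapl* delta/+ brains and 217 in 3 *WT* brains (log2FC 0.41). Among those with high *mt-Nd3*, it was 323 in 5 *Wapl* delta/+ brains and 234 in 2 *WT* brains (log2FC 0.46).

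In brains with a *Nipbl* mutation, the levels of *Gjb2* overlapped those of *WT*. The 3 *Nipbl*+/- libraries gave 250.3, 183 and 178 normalized counts (204 ± 40.4, SD), with 1 library within the *WT* range and 2 below it. The log2FC from *WT* was -0.16 (SE 0.114, FDR-adjusted *P* = 0.478, edgeR quasi-likelihood test). Without single libraries it ran from -0.33, where *Nipbl*+/- replicate 1 was left out (edgeR adjusted *P* = 0.117), to -0.07, where replicate 3 was. The 6 double heterozygotes ranged from 216 to 264 around a median of 231 (235 ± 18.4, SD), and 5 of the 6 fell within the *WT* range. Their log2FC from *WT* was 0.06 (SE 0.0779, edgeR adjusted *P* = 0.798). Both comparisons reuse the *WT* libraries on which *Gjb2* was selected. By their means, the genotypes were ordered *Nipbl*+/-, *WT*, double heterozygote and *Wapl* delta/+, and the first 3 of these overlapped one another.

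**Figure D1:**
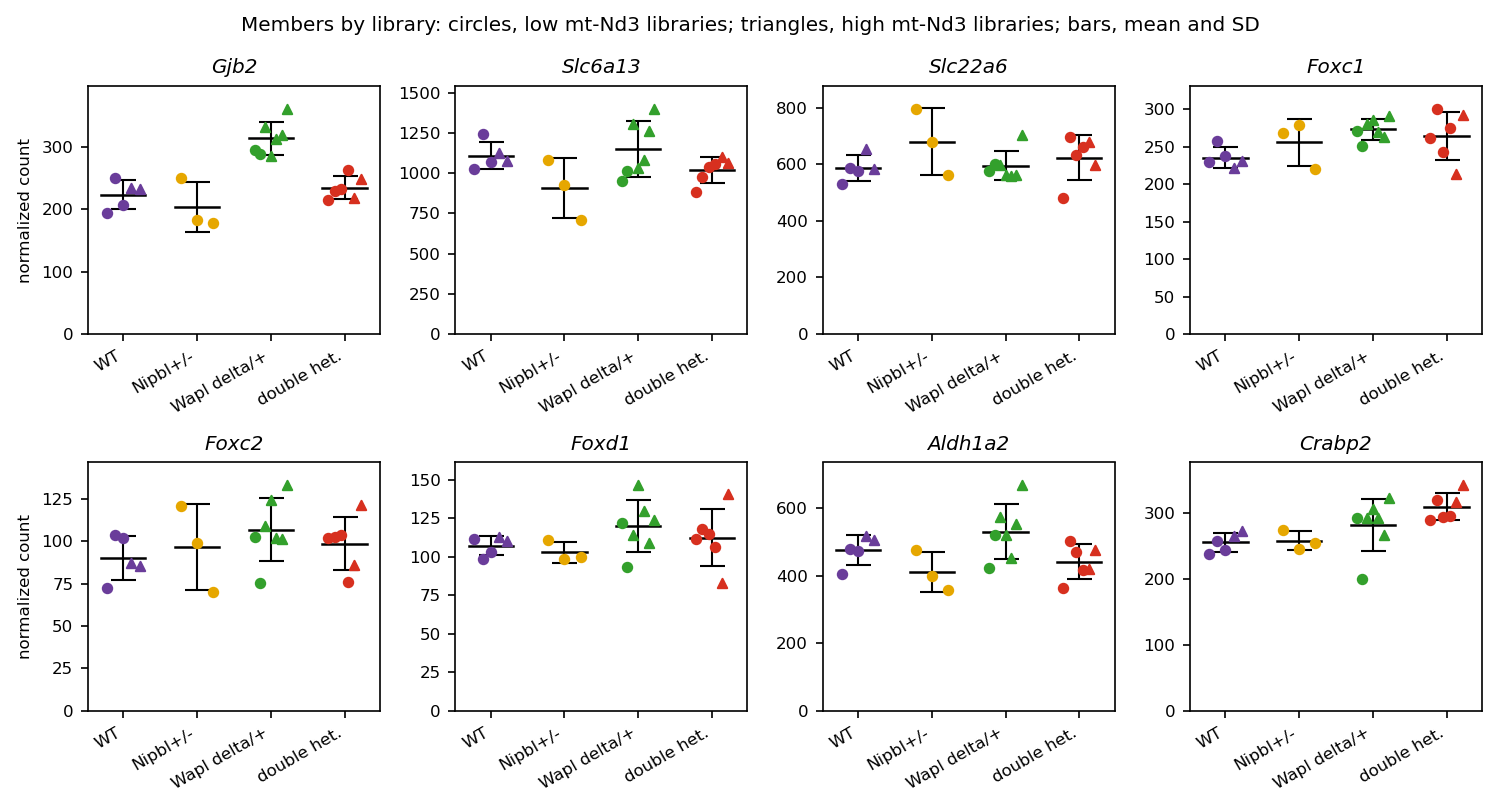
Normalized counts (y axis, from 0) of the 8 members in each of the 21 libraries by genotype (x axis), with bars for the mean and SD and with circles and triangles for libraries with low and high *mt-Nd3*. *Gjb2* lay between 286 and 362 in *Wapl* delta/+ brains and between 178 and 264 in all other brains, whereas the *Wapl* delta/+ and *WT* ranges of the other 7 genes overlapped.

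Whether loss of *Wapl* raised *Gjb2* in brains that already lacked 1 copy of *Nipbl* was the single comparison that used none of the libraries in which *Gjb2* was picked. The mean was 235 in double heterozygotes and 204 in *Nipbl*+/- brains, and the ranges overlapped. The log2FC was 0.22 (SE 0.111, edgeR adjusted *P* = 0.971), and an exact permutation test of log2 CPM over all 84 assignments of the 9 libraries gave a two-sided *P* of 0.131, where 0.0119 is the smallest it can give. When single libraries were left out, the log2FC ranged from 0.13 to 0.39, and the highest value came without *Nipbl*+/- replicate 1. The difference thus did not exceed the spread between libraries. Of the 8 members, 0 were called at an adjusted *P* below 0.10 in this comparison by edgeR and 0 by DESeq2, beside 0.00655% of all genes tested by edgeR. At an unadjusted *P* below 0.05, edgeR passed 1259 of the 30552 genes, among them 1 member, *Crabp2*.

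The comparison of double heterozygotes with *Wapl* delta/+ brains reuses the *Wapl* delta/+ libraries whose high values selected *Gjb2*, so its values for this gene are a description with no test. All 6 double heterozygotes lay below all 7 *Wapl* delta/+ brains, with a highest count of 264 against a lowest of 286. The log2FC was -0.41 (SE 0.0689). *Gjb2* was the single member past the threshold by edgeR, where 1.02% of all genes were, and the single member whose groups did not overlap, where 0.926% of all genes had such groups, and nothing is read from these counts. Within the low *mt-Nd3* libraries, 2 *Wapl* delta/+ brains against 4 double heterozygotes, the log2FC was -0.30 and did not pass the threshold. Within the high set, 5 against 2, it was -0.47 and did not pass it either. The difference between the effects of *Wapl* loss with 2 and with 1 copies of *Nipbl* was -0.29 on the log2 scale (SE 0.133), again a description.

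None of the 4 genes nearest to *Gjb2* passed the test. The nearest tested genes with at least 1 CPM on its chromosome were *2410022M11Rik* and *Zmym2* on the one side and *Gjb6*, which encodes the related connexin 30, and *Cryl1* on the other. From *WT* to *Wapl* delta/+ brains their log2FC values were -0.18, -0.03, 0.11 and -0.04, and none was called by edgeR in any of the 5 comparisons of 2 groups (lowest adjusted *P* 0.245). With the group means removed, *Gjb6* had an *r* of 0.69 with *Gjb2* over the 21 libraries, given as a description. *Gjb2* starts 22.4 Mb beyond the end of *Wapl* on the same chromosome. Of 18 further connexin genes tested, 0 were called in *Wapl* delta/+ brains by edgeR and 0 by DESeq2, with 2 at an unadjusted *P* below 0.05 (median log2FC 0.06, beside -0.00 over all genes). EdgeR called 2.22% of all genes there and gave 4780 of all 30552 genes an unadjusted *P* below 0.05. In *Nipbl*+/- brains 2 were lower, beside 11.2% of all genes called in either direction. *Gja1*, the connexin 43 of astrocytes and meninges, had a log2FC of -0.35 (edgeR adjusted *P* = 0.00216) and *Gjc3*, a connexin of glia, of -0.71 (edgeR adjusted *P* = 0.0181). In double heterozygotes *Gjc3* alone was lower than in *WT*, by -0.42 (edgeR adjusted *P* = 0.0855).

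*Slc6a13* encodes the GABA and taurine transporter GAT2 and lies on chromosome 6 from 121300288 to 121337721. Its normalized count was 1025, 1243, 1066, 1125 and 1075 in *WT* brains (1107 ± 84.3, SD) and 1084, 924 and 709 in *Nipbl*+/- brains (906 ± 188, SD). *Nipbl*+/- replicate 1 lay within the *WT* range, and the other 2 lay below it. The fall from *WT* passed the test, with a log2FC of -0.32 (SE 0.0905, edgeR adjusted *P* = 0.0373). It was the single member called there, where 11.2% of all genes were, and 0 of 8 members had groups that did not overlap, where 14.7% of all genes had. The call was lost without *Nipbl*+/- replicate 3 (log2FC -0.16, edgeR adjusted *P* = 0.228), without *WT* replicate 2 (log2FC -0.27, edgeR adjusted *P* = 0.108), in the low *mt-Nd3* libraries (log2FC -0.33, edgeR adjusted *P* = 0.134), in one fit of all 4 groups (log2FC -0.29, edgeR adjusted *P* = 0.176) and with DESeq2 (adjusted *P* = 0.116). In *Wapl* delta/+ brains the count ranged from 948 to 1401 around a median of 1081 (1149 ± 172, SD; log2FC 0.04), above, within and below the *WT* range. In double heterozygotes it ranged from 881 to 1099.9 around 1047, a log2FC from *WT* of -0.12 (edgeR adjusted *P* = 0.354) and from *Nipbl*+/- of 0.18 (edgeR adjusted *P* = 0.971).

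*Slc22a6* encodes the organic anion transporter OAT1 and lies on chromosome 19 from 8617996 to 8628299. The *WT* brains gave 529.9, 588, 576, 655 and 584 normalized counts (587 ± 44.7, SD) and the *Nipbl*+/- brains 797, 680.2 and 561 (679 ± 118, SD). The 2 highest values of these groups were those of *Nipbl*+/- replicates 1 and 2, while replicate 3 lay within the *WT* range, and the log2FC of 0.18 was not called (SE 0.0834, edgeR adjusted *P* = 0.22). Without *Nipbl*+/- replicate 3 it was 0.31 and called (edgeR adjusted *P* = 0.0185), so in this genotype the calls of *Slc6a13* and *Slc22a6*, whose fold changes had opposite signs, turned on the same library. *Wapl* delta/+ brains ranged from 559 to 704 around 576 (594 ± 51.1, SD), and 6 of the 7 lay within the *WT* range. Double heterozygotes ranged from 479.8 to 696 around 647 (624 ± 78.7, SD), on both sides of the *WT* range. Of 9 other GABA and organic anion transporter genes, 3 were called by edgeR in *Nipbl*+/- brains, where 11.2% of all genes were. *Slc6a11*, the GABA transporter GAT3 of astrocytes, fell by 0.49 in log2FC (edgeR adjusted *P* = 0.00285), *Slco1c1*, a thyroid hormone transporter of the blood-brain barrier, fell by 0.20 (edgeR adjusted *P* = 0.0452), and *Slc6a12*, the betaine transporter, rose by 0.47 (edgeR adjusted *P* = 0.0654). *Slc6a11* was also lower in double heterozygotes than in *WT* (log2FC -0.42, edgeR adjusted *P* = 0.000879), and 0 of the 9 were called in *Wapl* delta/+ brains by edgeR or DESeq2. There 1 of the 9 had an unadjusted *P* below 0.05 in edgeR, beside 4780 of all 30552 genes.

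The 3 forkhead genes had higher means in *Wapl* delta/+ than in *WT* brains, with overlapping libraries. *Foxc1*, whose product is needed for the meninges to form, lies on chromosome 13 from 31806646 to 31810635 and gave 229.6, 258, 238, 221 and 231 normalized counts in *WT* brains (236 ± 14, SD). *Wapl* delta/+ brains ranged from 251 to 292 around 272 (273 ± 13.9, SD), and 6 of the 7 lay above all *WT* brains, with a log2FC of 0.20 (SE 0.0599). The 3 *Nipbl*+/- brains gave 268, 279 and 221, and double heterozygotes ranged from 214 to 301 around 268. The log2FC of *Foxc1* from *WT* was 0.09 in the former (edgeR adjusted *P* = 0.645) and 0.16 in the latter (edgeR adjusted *P* = 0.413), and neither passed the test. Without double-heterozygote replicate 5, the lowest of its group, the latter was 0.21 (edgeR adjusted *P* = 0.0968).

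*Foxc2*, the closest relative of *Foxc1*, lies on chromosome 8 from 121116171 to 121118895 and had the widest relative spread of the members in *WT*, *Nipbl*+/- and *Wapl* delta/+ brains. The *WT* brains gave 72.5, 104, 102, 87.3 and 85.3 normalized counts (90.2 ± 13.0, SD) and the *Nipbl*+/- brains 121, 99.3 and 70.0 (96.6 ± 25.4, SD), and the *Nipbl*+/- libraries spanned the whole *WT* range. *Wapl* delta/+ brains ranged from 75.5 to 133 around 102, a log2FC of 0.24 (SE 0.124), and double heterozygotes from 75.9 to 122 around 102. *Foxd1*, a forkhead gene of the developing mesenchyme, lies on chromosome 13 from 98354245 to 98356705. It gave 112, 98.6, 103, 113 and 110.1 in *WT* brains and 111, 98.3 and 99.7 in *Nipbl*+/- brains, which overlapped. *Wapl* delta/+ brains ranged from 93.4 to 146 around 122 (log2FC 0.14) and double heterozygotes from 83.2 to 141 around 113, each reaching beyond the *WT* range on both sides. For *Foxc2* and *Foxd1* no comparison of 2 groups outside that of *Wapl* delta/+ with *WT* passed the edgeR test (adjusted *P* between 0.72 and 0.991). Of 16 other forkhead genes, *Foxp1*, a transcription factor of neurons, was lower than in *WT* in *Nipbl*+/- brains (log2FC -0.23, edgeR adjusted *P* = 0.00164), in *Wapl* delta/+ brains (log2FC -0.18, edgeR adjusted *P* = 0.0381) and in double heterozygotes (log2FC -0.15, edgeR adjusted *P* = 0.0559). *Foxo1* was lower (log2FC -0.23, edgeR adjusted *P* = 0.0246) in *Nipbl*+/- brains.

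*Aldh1a2* encodes the enzyme that makes retinoic acid in the meninges and lies on chromosome 9 from 71215789 to 71296243. Its normalized count was 404, 478, 472, 516 and 507 in *WT* brains (475 ± 44.0, SD), 476, 399 and 358 in *Nipbl*+/- brains (411 ± 59.5, SD), from 421 to 668 around 521 in *Wapl* delta/+ brains (530.2 ± 81.3, SD) and from 363 to 503 around 445 in double heterozygotes (442 ± 50.7, SD). All groups overlapped *WT*, and the lowest mean was that of *Nipbl*+/- brains. The log2FC from *WT* was -0.24 in *Nipbl*+/- brains (SE 0.0862, edgeR adjusted *P* = 0.111), which DESeq2 called (adjusted *P* = 0.0995) and edgeR did not, and -0.11 in double heterozygotes (edgeR adjusted *P* = 0.584). In *Nipbl*+/- brains edgeR called it without a filter on low counts (log2FC -0.23, edgeR adjusted *P* = 0.0313), without *Nipbl*+/- replicate 1 (log2FC -0.35, edgeR adjusted *P* = 0.0296) and without *WT* replicate 1 (log2FC -0.28, edgeR adjusted *P* = 0.0578). Between double heterozygotes and *Wapl* delta/+ brains the log2FC was -0.26 (SE 0.0923, edgeR adjusted *P* = 0.308).

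*Crabp2*, which encodes a protein that carries retinoic acid within the cell, was the member highest in double heterozygotes. It lies on chromosome 3 from 87948693 to 87953372. The *WT* brains gave 237, 257, 243, 265 and 272 normalized counts (255 ± 14.3, SD), the *Nipbl*+/- brains 273, 245 and 254 (258 ± 14.6, SD), and the 6 double heterozygotes ranged from 288 to 342 around 305 (309 ± 20.5, SD). All 6 double heterozygotes lay above all *WT* and all *Nipbl*+/- brains. The log2FC from *WT* was 0.27 (SE 0.0635, edgeR adjusted *P* = 0.0331), and *Crabp2* was the single member called in that comparison, against 3.28% of all genes. It was also the single member whose groups did not overlap, against 2.53% of all genes. Relative to *Nipbl*+/- brains the log2FC was 0.27 (SE 0.0794, unadjusted *P* = 0.00331 and adjusted *P* = 0.971 in edgeR's fit across all genes), and here too *Crabp2* alone of the 8 had groups that did not overlap, against 2.34% of all genes. The *Wapl* delta/+ brains ranged from 199.7 to 322 around 292 and overlapped every other group. Replicate 2 was the lowest of all 21 libraries, and replicate 6, with 266, lay within the *WT* and *Nipbl*+/- ranges. The call against *WT* was lost without *WT* replicate 1 (log2FC 0.25, edgeR adjusted *P* = 0.107) and within the *mt-Nd3* sets, where the log2FC was 0.27 in the low set (edgeR adjusted *P* = 0.12) and 0.29 in the high set (edgeR adjusted *P* = 0.814).

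**Figure D2:**
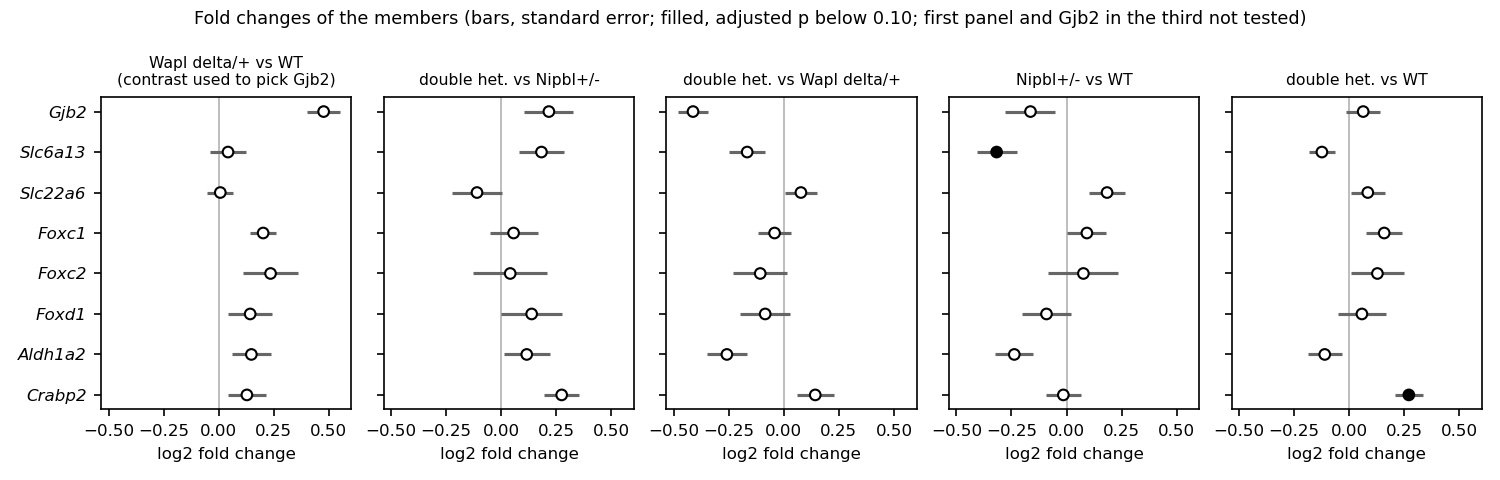
Log2 fold changes (x axis) of the 8 members in 5 comparisons of 2 groups, with bars for the standard error and filled points for an edgeR adjusted *P* below 0.10. In the first panel, which shows the contrast used to pick *Gjb2* and carries no test, *Gjb2* stood at 0.48 and the other 7 between 0.01 and 0.24, the point of *Gjb2* between double heterozygotes and *Wapl* delta/+ brains (-0.41) is drawn hollow for the same reason, and the 2 filled points are *Slc6a13* (-0.32) and *Crabp2* (0.27).

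Of 17 other genes of the retinoic acid pathway, edgeR called 2 higher and 4 lower in *Nipbl*+/- than in *WT* brains, beside 11.2% of all genes called. The strongest by *P* were *Aldh1a1*, a further retinaldehyde dehydrogenase (log2FC -0.60, edgeR adjusted *P* = 0.00259), *Dhrs3*, which turns retinaldehyde back to retinol (log2FC -0.39, edgeR adjusted *P* = 0.00752), and *Stra6*, a receptor for the uptake of retinol (log2FC 0.30, edgeR adjusted *P* = 0.0136). In double heterozygotes *Aldh1a1* (log2FC -0.57, edgeR adjusted *P* = 0.00736) and *Cyp26b1*, which degrades retinoic acid (log2FC -0.25, edgeR adjusted *P* = 0.0435), were lower than in *WT*. In *Wapl* delta/+ brains edgeR called 0 of the 17, beside 2.22% of all genes, and DESeq2 1. There 5 of the 17 had an unadjusted *P* below 0.05 in edgeR, beside 4780 of all 30552 genes. *Aldh1a1*, *Cyp26b1* and *Dhrs3* were lower in double heterozygotes than in *Wapl* delta/+ brains, with log2FC values of -0.62, -0.34 and -0.29 (edgeR adjusted *P* = 0.00755, 0.0281 and 0.048). *Crabp2* thus rose against *WT* in double heterozygotes while *Aldh1a1* and *Cyp26b1* fell.

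The members differed among themselves in the direction of their fold changes in 2 of the 3 mutant genotypes. In *Wapl* delta/+ brains all 8 had positive log2FC values, with a median of 0.15 beside -0.00 over all genes, and edgeR called *Gjb2* alone where DESeq2 called *Foxc1* too. Of all genes, edgeR called 2.22% there, and 1.4% had groups that did not overlap, as *Gjb2* alone of the members did. That contrast chose *Gjb2*, so nothing is read from those counts. In *Nipbl*+/- brains 3 of the 8 were positive and 5 negative (median -0.05, all genes -0.01), and in double heterozygotes 6 were positive and 2 negative (median 0.07, all genes 0.00). The interaction of the 2 mutations was called for 0 of 8 members and for 0.0% of all genes by edgeR, with 4221 of 30552 genes at an unadjusted *P* below 0.05. DESeq2 called 793 genes and none of the members, 6 of which it gave no adjusted *P*. For the 7 members other than *Gjb2*, edgeR's adjusted *P* of the interaction lay between 0.56 and 0.965.

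Relative to the other members, *Gjb2* was shifted in *Wapl* delta/+ brains alone of the 4 genotypes. The log2 CPM of *Gjb2* minus the mean log2 CPM of the other 7 was -0.38 ± 0.0903 (SD, n = 5) in *WT*, -0.50 ± 0.138 (SD, n = 3) in *Nipbl*+/-, -0.38 ± 0.118 (SD, n = 6) in double-heterozygote and -0.03 ± 0.0968 (SD, n = 7) in *Wapl* delta/+ brains. This difference compares libraries, not the abundance of the genes, and no test is given since *Gjb2* was picked for its rise. It ran from -0.23 to 0.08 in *Wapl* delta/+ brains and from -0.49 to -0.27 in *WT* brains, without overlap, and 1 double heterozygote, replicate 4, reached the *Wapl* delta/+ range with -0.16. The mean of the other 7 was itself 0.13 ± 0.141 (SD, n = 7) above its *WT* mean in *Wapl* delta/+ brains, 0.07 ± 0.111 (SD, n = 6) above it in double heterozygotes and at -0.03 ± 0.202 (SD, n = 3) relative to it in *Nipbl*+/- brains. Each shift was smaller than the SD of single libraries of its genotype. That SD is larger than the error of a group mean, and the shifts were not tested.

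**Figure D3:**
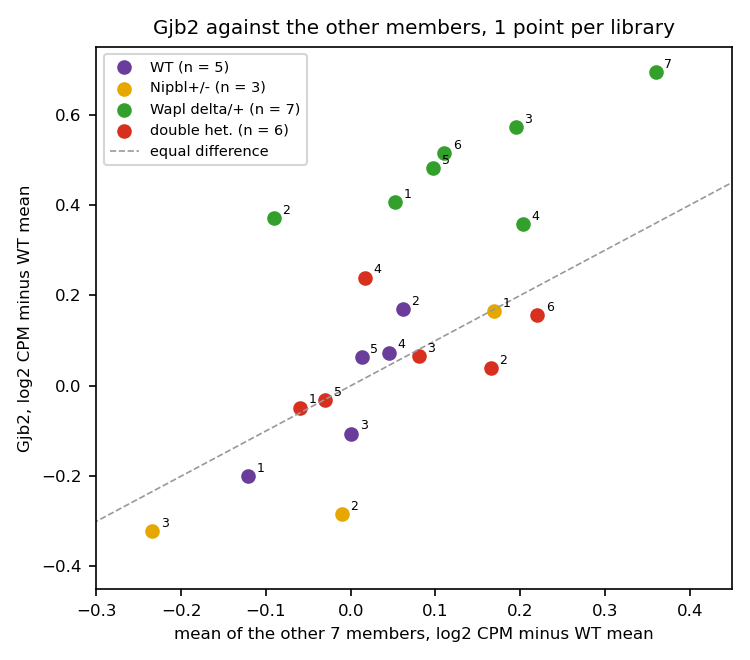
Log2 CPM of *Gjb2* (y axis) against the mean log2 CPM of the other 7 members (x axis), each as the difference from the *WT* mean, with 1 numbered point per library and a dashed line of equal difference. The 7 *Wapl* delta/+ libraries lie above the line, and *Wapl* delta/+ replicate 7, with 0.36 on the x axis, is the farthest to the right.

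Single libraries were high or low in most members at once. Among *Wapl* delta/+ brains, replicate 7 had the highest count of 7 of the 8 members. Of the 3 *Nipbl*+/- brains, replicate 1 was highest in 7 members and replicate 3 lowest in 6. *WT* replicate 1 was the lowest of its group in 6 members and double-heterozygote replicate 1 in 5. With the group means removed, Pearson's *r* of log2 CPM over the 21 libraries was positive for 26 of the 28 pairs of members (median 0.45, range -0.08 to 0.78), and 10 pairs passed an adjusted *P* of 0.05 in a permutation test with 100000 permutations within groups (7 pairs by Spearman's rho). *Gjb2* and *Slc6a13* varied most closely together (*r* = 0.78, permutation *P* = 0.00034, adjusted *P* = 0.00476, rho = 0.77, permutation *P* = 0.00031, adjusted *P* = 0.00868). Without the 2 libraries farthest from the median of *Gjb2* their *r* was 0.67, in the 12 low *mt-Nd3* libraries 0.84, and in the 9 high ones 0.77.

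The pairs that passed fell among *Gjb2*, *Slc6a13*, *Slc22a6* and *Aldh1a2* on the one hand, where all 6 pairs did, and among *Foxc1*, *Foxc2*, *Foxd1* and *Crabp2* on the other, where 4 of 6 did, and no pair across these sets passed. The sets were formed after the values were seen. *Slc22a6* with *Aldh1a2* had an *r* of 0.74 (permutation adjusted *P* = 0.00476, rho = 0.67, permutation adjusted *P* = 0.0235), and *Foxc1* with *Foxc2* an *r* of 0.62 (permutation adjusted *P* = 0.0304, rho = 0.70, permutation adjusted *P* = 0.0228). Without *Wapl* delta/+ replicate 7, the number of pairs that passed dropped to 2 of 28, and leaving out other libraries gave up to 13. Pairs share each library's depth and dissection, whose part was not tested.

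**Figure D4:**
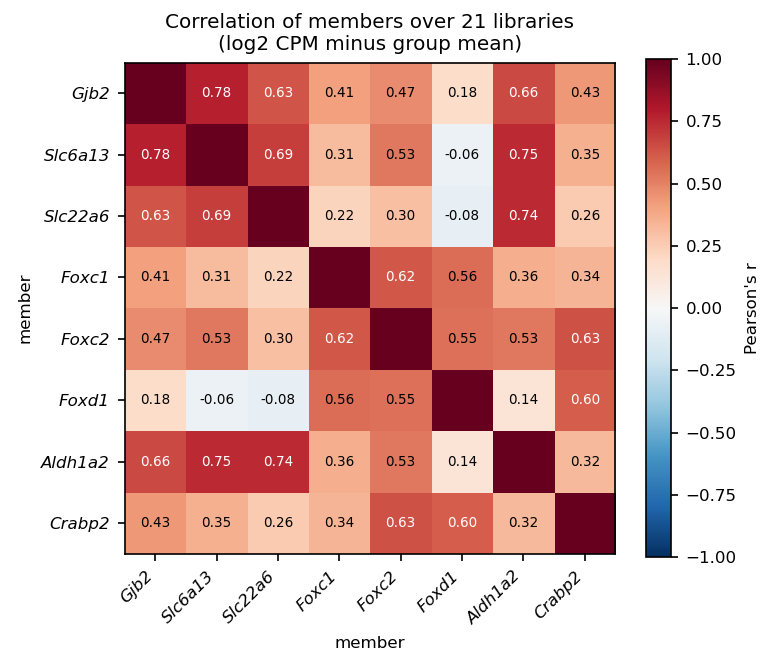
Pearson's *r* for each pair of members (both axes) over 21 libraries, from log2 CPM minus the group mean, on a color scale from -1 to 1. *Gjb2*, *Slc6a13*, *Slc22a6* and *Aldh1a2* had values of 0.63 to 0.78 with one another, and *Foxd1* is the member with values near 0 for *Slc6a13* and *Slc22a6* (-0.06 and -0.08).

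The genes most like *Gjb2* by *r* over the 21 libraries, of 17303 genes that averaged 1 CPM or more, were *Snx9* (0.80), *Cdh1* (0.77), *Cd68* (0.77), *Angptl2* (0.75) and *Ptpn6* (0.74). *Cdh1*, which encodes E-cadherin, is a marker of the arachnoid barrier, and *Cd68* is a marker of macrophages. Those most like the mean of the other 7 members were *Tgm2* (0.93), *Aebp1* (0.87), *Prss23* (0.84), *Cldn11* (0.83), a tight junction gene also found in the arachnoid barrier, and *Pld4* (0.82). By list, the median *r* with that mean was 0.52 for 28 other meningeal genes, 0.51 for 7 macrophage, 0.51 for 9 endothelial and 0.48 for 9 mural cell genes, 0.31 for 9 choroid plexus and 0.15 for 9 neuron genes, and 0.03 for all genes. The median *r* with *Gjb2* itself was 0.43 for macrophage, 0.35 for choroid plexus, 0.32 for mural cell and 0.32 for other meningeal genes. It was 0.27 for endothelial genes, -0.06 for neuron genes and 0.02 for all genes, so the meningeal list was not the one most like *Gjb2*. These are descriptions over libraries that share depth and dissection. Vessels and macrophages lie within the meninges, but whether that bears on these values was not tested.

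Of 28 other meningeal genes, 3 collagen genes passed the test in *Wapl* delta/+ brains and 7 genes in *Nipbl*+/- brains. In *Wapl* delta/+ brains edgeR called 3 higher and 0 lower than in *WT*, beside 2.22% of all genes called in either direction (median log2FC 0.13, all genes -0.00). An unadjusted *P* below 0.05 in edgeR was reached by 13 of the 28, beside 4780 of all 30552 genes. The 3 called were the fibrillar collagen genes *Col3a1* (log2FC 0.35, edgeR adjusted *P* = 0.0381), *Col1a2* (log2FC 0.38, edgeR adjusted *P* = 0.0891) and *Col1a1* (log2FC 0.62, edgeR adjusted *P* = 0.0952), of which *Col3a1* alone had groups that did not overlap. In the same brains the mural cell gene *Pdgfrb* (log2FC 0.19, edgeR adjusted *P* = 0.0381) and the endothelial gene *Cdh5* (log2FC 0.15, edgeR adjusted *P* = 0.0998) were higher as well. Bone and cartilage genes summed to 38.3 to 111 CPM (median 61.5) there and to 35.7 to 53.7 CPM (median 39.3) in *WT* brains, which overlapped. The part of vessels, bone and cartilage in the collagen values was not tested. In *Nipbl*+/- brains 2 were higher and 5 lower, beside 11.2% of all genes (median -0.07, all genes -0.01). The strongest by *P* were lower: *Cemip*, a hyaluronan-degrading protein gene (log2FC -0.58, edgeR adjusted *P* = 3.94e-05), *Ccn3*, a matricellular protein gene (log2FC -0.68, edgeR adjusted *P* = 7.8e-05), and *Cxcl12*, the chemokine that meninges secrete (log2FC -0.38, edgeR adjusted *P* = 0.000453). In double heterozygotes *Cemip* (log2FC -0.36, edgeR adjusted *P* = 0.0133) and *Ccn3* (log2FC -0.39, edgeR adjusted *P* = 0.0467) were lower and *Wnt6* higher (log2FC 0.47, edgeR adjusted *P* = 0.0826) than in *WT*. Between double heterozygotes and either single heterozygote, edgeR and DESeq2 called 0 of the 28. Against *Nipbl*+/- brains 4 of the 28 had an unadjusted *P* below 0.05 in edgeR, beside 1259 of all 30552 genes. Against *Wapl* delta/+ brains 6 had, beside 3037 of all genes.

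Some markers of other cell types passed the test as well. Against *WT*, edgeR called 11.2% of all genes in *Nipbl*+/-, 2.22% in *Wapl* delta/+ and 3.28% in double-heterozygote brains. Macrophage genes, several of which are known from the meninges, summed to 80.0 to 95.1 CPM in *WT*, 62.3 to 75.8 CPM in *Nipbl*+/-, 79.0 to 103 CPM in *Wapl* delta/+ and 71.2 to 82.9 CPM in double-heterozygote brains. Of the 7, edgeR called 4 lower in *Nipbl*+/- brains, 0 in *Wapl* delta/+ brains and 2 lower in double heterozygotes, *Cd163* most by *P* (log2FC -1.93 in *Nipbl*+/-, edgeR adjusted *P* = 2.49e-06). Choroid plexus genes summed to 1002 CPM in *Wapl* delta/+ replicate 7, the highest of the 21 libraries. Among *Wapl* delta/+ libraries, replicate 7 was also highest in 7 of the 8 members and in the sums of endothelial, mural cell, macrophage and astroglia genes. It was not the highest of them in neuron, blood or other meningeal genes. Endothelial genes summed to 328 to 429 CPM and mural cell genes to 308 to 412 CPM over all libraries, and no marker list had all its genes at 0 in a group. In *Nipbl*+/- brains edgeR called 2 of 9 endothelial genes higher, *Slc2a1* (log2FC 0.23, edgeR adjusted *P* = 0.0107) and *Cdh5* (log2FC 0.16, edgeR adjusted *P* = 0.0368), and 2 of 9 mural cell genes lower, *Rgs5* (log2FC -0.27, edgeR adjusted *P* = 0.00696) and *Abcc9* (log2FC -0.23, edgeR adjusted *P* = 0.0895). In double heterozygotes 0 genes of either list were called against *WT* by edgeR, and 1 endothelial and 0 mural cell genes by DESeq2. There 2 of each list had an unadjusted *P* below 0.05 in edgeR, beside 4123 of all 30552 genes. Of 6 astroglia genes, 4 were lower in *Nipbl*+/- brains and 3 in double heterozygotes (edgeR), led by *Slc1a3* (log2FC -0.37, edgeR adjusted *P* = 0.000205 in *Nipbl*+/-). The part of these cell types in the members' values was not tested.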

How the data were processed

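Members and gene lists were chosen with earlier results of these data known, and so were the tests. The authors deposited raw counts of paired-end reads per gene, made from oligo(dT)-purified RNA of E17.5 female whole brains. According to the submitters' processing notes and the paper's methods, the reads were handled with cutadapt 2.4, STAR 2.5.3a, featureCounts from Subread 1.6.4 and MultiQC 1.9 and the build was mm10 (GRCm38.p6). The annotation release and strand setting are not given in the sources used here, so reads of *Gjb2* and of *Slc22a6* cannot be told apart from those of overlapping noncoding genes (*Gm32912* and *Gm36394* in RefSeq). Gene positions are from RefSeq for GRCm38.p6; no sequence is printed.

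Groups were taken from the sample labels. Counts were analysed with edgeR 4.0.16 in R 4.3.3 (TMM normalization, quasi-likelihood test), each comparison on its own groups and the interaction on all 4. Tests covered the 30552 genes whose normalized counts added up to 10 or more across libraries, and calls were made at a Benjamini-Hochberg adjusted *P* below 0.10, the study's threshold. Total counts ran from 25682566 to 35818767 per library. The paper describes the embryos as littermates, but the labels name no litters, so litter was in no fit and *P* values measure the spread between embryos as sampled. Correlations used log2 CPM (prior count 2) minus group means. Code for the many-gene fits was tested on simulated data.

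Named genes are the members, *Wapl*, *Nipbl* and *mt-Nd3*, up to 3 called genes with the smallest *P* per list and comparison, the 5 genes most like *Gjb2* and most like the mean of the others, and the nearest 2 expressed genes on each side of *Gjb2*. Some genes that this rule names are not reported here. *Nov* was matched as *Ccn3*. Alternatives were DESeq2 1.42.0, its size factors in edgeR, no filter, filterByExpr, a threshold of 0.05, all 4 groups in one fit, a block for the replicate number, leaving out single libraries, and subsets by *mt-Nd3* set and by how the labels order the *Wapl* alleles, with the sets also as a term.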

Additional observations from a re-analysis of the deposited data

Results flagged for a closer look

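*Slc22a6* in *Wapl* delta/+ replicate 7 stood apart from the other 6 *Wapl* delta/+ brains with 704.104 normalized counts, the highest of 7, at a distance to its nearest neighbor that took a share of 0.716 of the group's range. It was the single value past Dixon's 95% limit in 24 groups of 5 to 7 libraries, and chance flags about 1 in 20 groups. The same library was highest in 7 of the 8 members.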

How the results depend on the processing

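The lowest raw count of a member in a library was 66 (*Foxc2*), where counting error is largest. The count of members called was 1 in each comparison with *WT* and in that of double heterozygotes with *Wapl* delta/+. In the 2 comparisons that use *Wapl* delta/+ libraries, that member was *Gjb2*, which was picked for its high values in them. Their counts under any setting, and with single libraries left out, are thus a description from which nothing is read. Against *WT* the count was 3 in *Nipbl*+/- brains without a filter and 0 in one fit of all 4 groups or in low *mt-Nd3* libraries. For *Wapl* delta/+ brains it was 2 with DESeq2, filterByExpr or the deletion written second and 0 in low *mt-Nd3* libraries. For double heterozygotes it was 0 in one fit of all 4 groups, with the replicate block and in either *mt-Nd3* set, and against *Wapl* delta/+ it was 0 in either *mt-Nd3* set and for either written order. Leaving out single libraries gave 0 to 2 members called in *Nipbl*+/-, 1 to 2 in *Wapl* delta/+ and 0 to 2 in double-heterozygote brains against *WT*, 0 in double heterozygotes against *Nipbl*+/- and for the interaction, 1 against *Wapl* delta/+, and 2 to 13 correlated pairs. The cause was not tested.

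Replicate numbers did not pair libraries: the correlation of same-numbered libraries ran from -0.21 to 0.37 over 25 pairs (median 0.02), and 3 of 21 libraries correlated best with their own number. With the replicate block, 1 member was called in *Nipbl*+/-, 1 in *Wapl* delta/+ and 0 in double-heterozygote brains against *WT*, and *Crabp2* in the last had a log2 fold change of 0.24 (edgeR adjusted *P* = 0.118).

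Several log2 fold changes changed sign under other settings. *Crabp2* in *Nipbl*+/- brains was 0.0155 in one fit of all 4 groups, 0.0324 with the block, 0.0326 with the *mt-Nd3* term and 0.0325 in low *mt-Nd3* libraries. In double heterozygotes against *WT*, *Foxd1* was -0.0153 with the block, and *Gjb2* -0.00443 and *Foxd1* -0.000789 in high *mt-Nd3* libraries. Against *Nipbl*+/-, *Foxc1* was -0.0215 with the deletion written second. Against *Wapl* delta/+, *Slc6a13*, *Foxc1*, *Foxc2* and *Foxd1* were 0.0186, 0.0553, 0.126 and 0.0767 in low *mt-Nd3* libraries, which are those with the deletion written first. For the interaction, *Foxd1* was 9.62e-05 with filterByExpr. *Foxc1*, *Foxc2*, *Foxd1* and *Aldh1a2* were 0.0023, 0.0906, 0.134 and 0.0695 in low *mt-Nd3* libraries, and the last 3 were 0.0496, 0.167 and 0.141 with the deletion written first. Leaving out single libraries gave ranges across 0 for *Crabp2* (-0.0546 to 0.0216) and *Foxc2* (-0.107 to 0.267) in *Nipbl*+/- brains, for *Foxd1* in double heterozygotes against *WT* (-0.0193 to 0.132), for *Foxc1* (-0.0393 to 0.123), *Foxc2* (-0.142 to 0.225) and *Slc22a6* (-0.23 to 0.0134) against *Nipbl*+/-, for *Foxc1* (-0.0846 to 0.0156) against *Wapl* delta/+; and for the interaction of *Foxd1* (-0.106 to 0.0735), *Aldh1a2* (-0.12 to 0.0589) and *Slc6a13* (-0.00563 to 0.263).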
